A study of Mus musculus with 18 samples.

Results

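The mRNA levels of 10 genes that encode laminin chains, nidogen-1 and perlecan were followed in whole ovaries of F1 female mice. They are the alpha chains Lama1, Lama2, Lama4 and Lama5, the beta chains Lamb1 and Lamb2, the gamma chains Lamc1 and Lamc3, the linker protein Nid1 and the proteoglycan core protein Hspg2. They were taken by gene symbol from a fixed list, all 10 were found among the 30172 genes of every library, and all 10 passed the filter on low values in each comparison.

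The 18 libraries came from wild-type C57BL/6J offspring of dams on a normal diet (F1-Control) or on a high-methionine diet (F1-HHcy), collected at postnatal day 3 (Pd3), 7 (Pd7) or 21 (Pd21), with 3 libraries in each of the 6 groups. The high-methionine diet held 3% methionine, which raises homocysteine in the dam (hyperhomocysteinemia, HHcy), and per the labels it began 4 weeks before mating and lasted through gestation and lactation. The study's methods give another length of feeding before mating. The pups were exposed through the dam and were not treated themselves. Pd3 and Pd7 belong to batch 1 and Pd21 to batch 2, so the diets were always compared within a batch, whereas age and batch cannot be told apart between Pd21 and the other days. Whether a library holds 1 pup or several is not stated in the sources used here, so the p-values measure the spread between these samples, which may be technical.

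A basement membrane is a thin sheet of matrix beneath epithelia and around vessels, muscle and nerve. Laminins are its scaffold: 1 alpha, 1 beta and 1 gamma chain wind into a cross-shaped trimer that polymerises on the cell surface, where integrins and dystroglycan bind the alpha chain. Nidogen links the laminin sheet to the collagen IV network, and perlecan, a heparan sulfate proteoglycan, binds both and holds growth factors. In the ovary such a membrane encloses each follicle, parting granulosa cells from theca and stroma, and others lie under the surface epithelium and around blood vessels.

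The files give FPKM, fragment counts scaled to the length of the gene and to the total on genes in the library, at a depth of 33630641 to 39399281 fragments per library. Levels below are FPKM, which are per length, so comparisons between genes rest on the gene lengths used. These differed from the bases of all annotated exons together, as 6046 against 12068 for Lama4 and 8478 against 6091 for Lamc3. Fold changes are on the scale of log2(FPKM + 1), which shrinks those of genes near 1 FPKM, with the standard error (SE) of a limma fit over all genes of that day. A gene is called higher or lower where its unadjusted p is under 0.05 and its change on this scale exceeds 0.58 in either direction. The Benjamini-Hochberg adjusted p over all genes tested stands beside it. Foxl2 of granulosa cells and Ddx4 of germ cells were present in every library, at no less than 45.7 and 3.27 FPKM.

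The 10 genes lie on 8 chromosomes of GRCm38 in the GENCODE vM21 annotation. Lama2 (chromosome 10, 26980036 to 27619758, minus strand) and Lama4 (chromosome 10, 38965515 to 39110188, plus) share chromosome 10, and Lama5 (chromosome 2, 180176373 to 180225859, minus) and Lamc3 (chromosome 2, 31887291 to 31946539, plus) share chromosome 2. Lama1 is on chromosome 17 (67697259 to 67822647, plus), Lamb1 on chromosome 12 (31265234 to 31329644, plus), Lamb2 on chromosome 9 (108479736 to 108490530, plus) and Lamc1 on chromosome 1 (153218922 to 153332786, minus). Nid1 is on chromosome 13 (13437551 to 13512269, plus) and Hspg2 on chromosome 4 (137468769 to 137570630, plus). The mRNAs are long: the gene lengths by which the values were divided ran from 5639 bases for Lamb2 to 14402 bases for Hspg2.

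RefSeq promoter windows of 300 bases (250 before to 50 after a transcript start, GRCm38.p6) were at hand for 6 of the 10 genes. Those of Lamb1, Nid1 and Hspg2 are shown because these 3 genes were called higher together at Pd3 and were the members most alike across libraries. Only the bases before the first base that RefSeq or GENCODE assigns to the gene are printed, 5′ to 3′ on the gene's strand. Capitals mark a GC box (GGGCGG) or a CCAAT box (CCAAT), on either strand.
Lamb1 (chr12:31265043-31265145, plus strand): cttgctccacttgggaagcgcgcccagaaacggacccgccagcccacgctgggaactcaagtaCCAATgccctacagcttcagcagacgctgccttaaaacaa
Nid1 (chr13:13437352-13437550, plus strand): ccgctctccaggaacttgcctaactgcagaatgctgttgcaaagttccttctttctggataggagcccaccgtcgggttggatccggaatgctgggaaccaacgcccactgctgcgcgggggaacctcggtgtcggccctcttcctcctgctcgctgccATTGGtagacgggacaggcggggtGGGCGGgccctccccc
Hspg2 (chr4:137468553-137468750, plus strand): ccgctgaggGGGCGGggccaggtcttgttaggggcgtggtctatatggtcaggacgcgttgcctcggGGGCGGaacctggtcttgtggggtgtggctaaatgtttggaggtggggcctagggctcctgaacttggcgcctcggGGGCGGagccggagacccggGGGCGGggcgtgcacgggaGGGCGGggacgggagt

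These stretches hold 0 GC boxes and 1 CCAAT box (Lamb1), 1 of each (Nid1), and 5 GC boxes with 0 CCAAT boxes (Hspg2), and no TATA box (TATAAA) was found in them. In the full windows the number of GC boxes was 2 for Lamb1, 1 for Nid1, 5 for Hspg2, 4 for Lama5, 1 for Lama2 and 0 for Lamb2. Of 32851 RefSeq windows of this length, 35.7% hold a GC box, 37.4% a CCAAT box and 13.6% a TATA box. The Hspg2 and Lama5 windows were among the richest in G and C (70.3% and 72.7%, above 90.9% and 93.9% of the windows), whereas that of Lamb2 held 44.0% and lay above 19.2% of them.

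In the F1-Control ovary at Pd3, Lamb1 and Nid1 were the most abundant of the 10 mRNAs, at 58.6 ± 4.9 and 56.7 ± 3.0 FPKM (SD, n = 3). Lamc1 followed at 33.2, Lamb2 at 26.1, Lama1 at 22.9 and Hspg2 at 18.3 FPKM. Lama4, Lama5 and Lama2 were between 6.76 and 9.80 FPKM, and Lamc3 was at 0.208 FPKM. Thus an alpha, a beta and a gamma chain, with nidogen and perlecan, were all present at Pd3, and the gamma chain was almost wholly Lamc1.

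**Figure D1:**
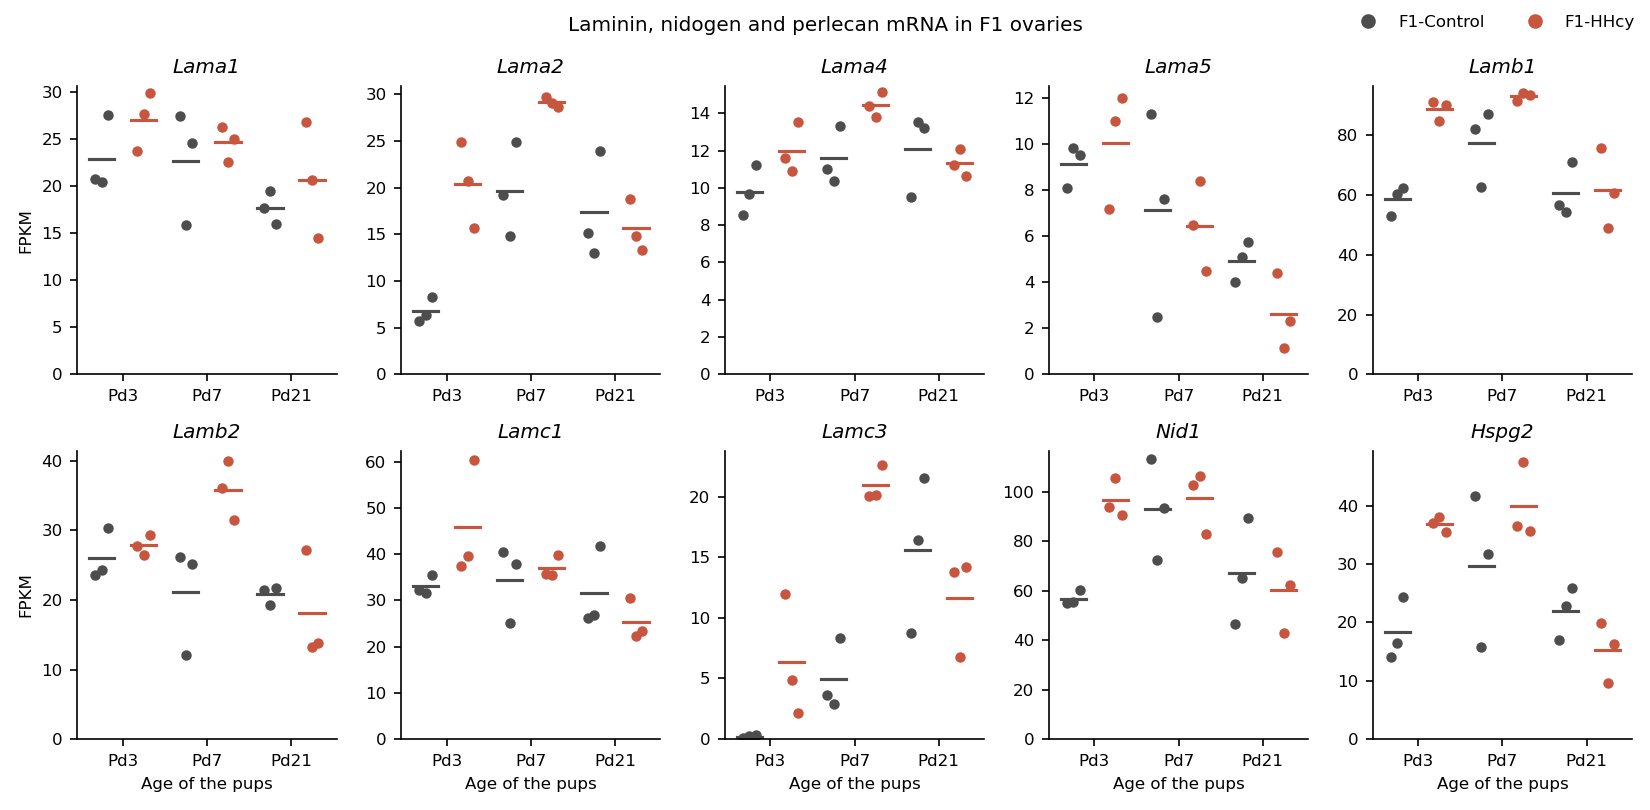
FPKM of each of the 10 genes (vertical axis, from 0) by age of the pups, with 1 point per library, a horizontal line at the mean of 3 libraries, F1-Control in grey and F1-HHcy in red. At Pd3 the F1-HHcy points of Lama2, Lamb1, Lamc1, Lamc3, Nid1 and Hspg2 lie above all F1-Control points, and at Pd21 the groups overlap for all 10 genes.

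At Pd3, 5 of the 10 genes, Lama2, Lamb1, Lamc3, Nid1 and Hspg2, were called higher in F1-HHcy ovaries, and 0 were called lower. Lamc3 passed the filter on low values at Pd3 only through the F1-HHcy libraries and so had to differ. Without it 4 members were called, an alpha chain, a beta chain, the linker and the proteoglycan. Of all 13277 genes tested at Pd3, 5% were called higher and 4.74% lower. These 4 also had an adjusted p under 0.05, as had Lamc3 and 1.64% of the genes in this direction. The median log2 fold change was 0.51 over the 10 genes and -0.03 over all genes tested, and all 10 values were above 0. The 10 levels summed to 221 to 270 FPKM in F1-Control and 367 to 379 FPKM in F1-HHcy.

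Lama2, the alpha chain best known from muscle and nerve, rose at Pd3 with a ratio of means of 3.02. It measured 24.9, 20.7 and 15.6 FPKM in the 3 F1-HHcy libraries and 5.75, 6.30 and 8.24 FPKM in the F1-Control libraries. The lowest F1-HHcy library stood above the highest F1-Control library. On the log2 scale the change was 1.45 (SE 0.19, adjusted p = 0.0203 by limma).

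Hspg2, which encodes perlecan, rose with a ratio of means of 2.01. It measured 37.1, 38.1 and 35.5 FPKM in F1-HHcy and 14.1, 16.4 and 24.4 FPKM in F1-Control. The F1-HHcy libraries were close together and the third F1-Control library was nearest to them. This was a change of 1.01 on the log2 scale (SE 0.19, adjusted p = 0.0392 by limma).

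Nid1, the nidogen-1 that links laminin to collagen IV, rose with little spread between replicates. It measured 93.8, 105 and 90.5 FPKM in F1-HHcy against 54.8, 55.2 and 60.2 FPKM in F1-Control, with no overlap. Its log2 fold change was 0.76 (SE 0.10, adjusted p = 0.0203 by limma).

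Lamb1, the beta chain of most embryonic laminins, was just past the fold threshold. It measured 91.3, 84.7 and 90.0 FPKM in F1-HHcy and 53.1, 60.3 and 62.4 FPKM in F1-Control, with no overlap. Its log2 fold change of 0.59 (SE 0.10, adjusted p = 0.0321 by limma) came under the threshold, at 0.57, when the mitochondrially encoded and hemoglobin genes were left out of the scaling. It did so too without F1-HHcy replicate 1 (0.57) and without F1-Control replicate 1 (0.52), each time with an unadjusted p still under 0.05.

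Lamc3, the gamma chain of the rarer laminins, showed the largest change of the 10 at Pd3. It was nearly absent from the F1-Control ovaries at 0.0703, 0.217 and 0.336 FPKM (21, 66 and 100 fragments), and stood at 12.0, 4.88 and 2.16 FPKM in F1-HHcy. All 3 F1-HHcy libraries were above all F1-Control libraries, but they lay far apart from each other. In the test the log2 fold change was 2.37 (SE 0.45, adjusted p = 0.0403 by limma). With any of the 3 F1-HHcy libraries left out it no longer passed and could not be tested.

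The other laminin chains had smaller fold changes at Pd3, and none was called. Lamc1, the gamma chain of nearly all laminins, did not overlap between the groups either, at 37.5, 39.6 and 60.5 FPKM in F1-HHcy and 32.3, 31.6 and 35.6 FPKM in F1-Control, with a change of 0.43 on the log2 scale (SE 0.18, adjusted p = 0.219 by limma) that lay under the fold threshold and dropped to 0.21 without F1-HHcy replicate 3. Lama4, the alpha chain of vessel walls, had a change of 0.27 on the log2 scale (SE 0.14, adjusted p = 0.29 by limma) and Lama1, the alpha chain of the first embryonic basement membranes, one of 0.24 (SE 0.15, adjusted p = 0.378 by limma). Lama5 and Lamb2, chains of mature epithelial and glomerular membranes, had 0.10 (SE 0.19) and 0.10 (SE 0.12). In all, 6 of the 10 genes were higher in every F1-HHcy library than in every F1-Control library, as were 11.8% of the genes tested. Lamc3, 1 of these 6, had to be, because it passed the filter only through the F1-HHcy libraries. Of the 10 genes, 0 were lower in this way, as were 16.1% of the genes tested.

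**Figure D2:**
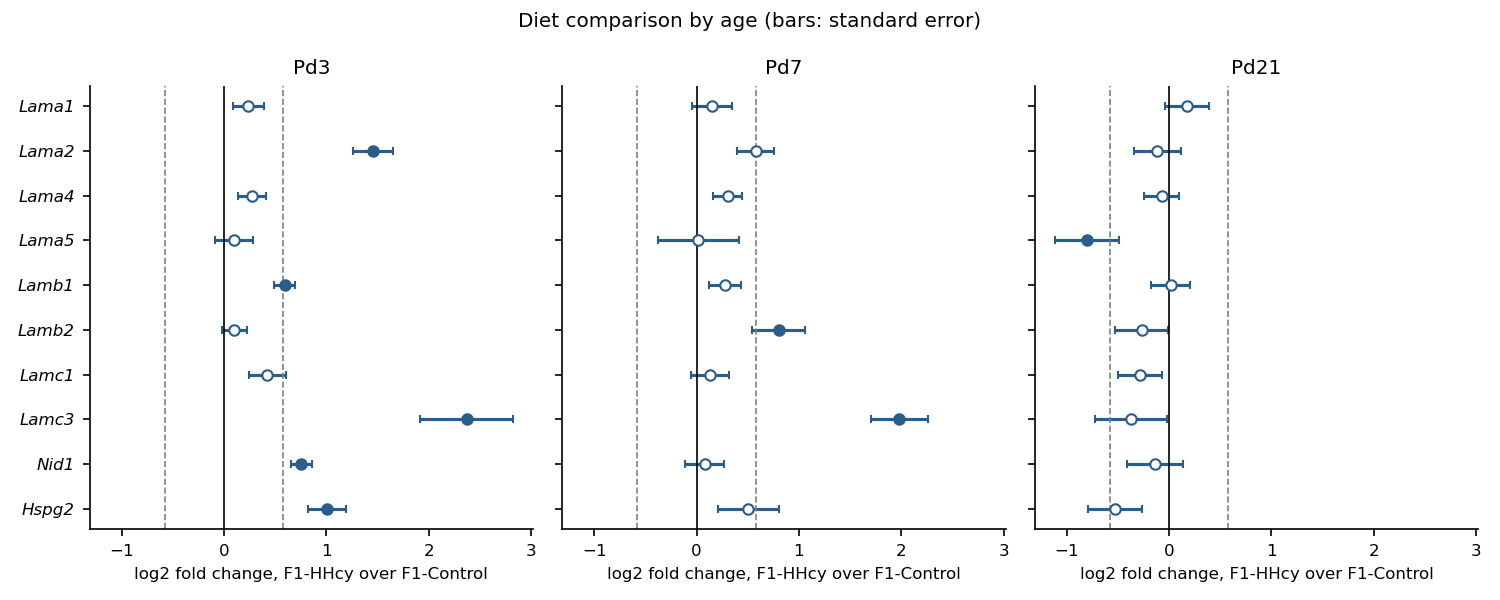
Log2 fold change of FPKM + 1, F1-HHcy over F1-Control (horizontal axis), for each of the 10 genes at Pd3, Pd7 and Pd21, with bars of 1 standard error, filled points for called genes and dashed lines at 0.58 and -0.58. Filled points are 5 at Pd3 and 2 at Pd7, all to the right, and 1 at Pd21, Lama5, to the left. Lamc3 at Pd3 passed the filter on low values only through the F1-HHcy libraries.

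Markers of other cell types moved at Pd3 too, and their part in the result was not tested. In bulk tissue, fewer cells of a type and less RNA per cell cannot be told apart. The summed level of 7 stromal mesenchyme markers (such as Pdgfra and Dcn) was 475 to 658 FPKM in F1-Control and 926 to 1209 FPKM in F1-HHcy, and 7 of 7 were higher with no overlap. The 7 endothelial markers (such as Pecam1 and Cdh5) summed to 48.9 to 68.6 and 81.3 to 122 FPKM, with 4 of 7 higher and not overlapping, and 4 of 5 macrophage markers behaved the same way. The 5 erythroid markers went the other way, from 3177 to 9134 FPKM in F1-Control to 690 to 953 FPKM in F1-HHcy.

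The spread of Lamc3 among the F1-HHcy libraries at Pd3 was shared by steroidogenic and contractile markers. In the order of the Lamc3 values given above, the 7 theca and steroidogenic markers summed to 713, 370 and 89.2 FPKM, against 107 to 162 FPKM in F1-Control. The 7 smooth muscle and pericyte markers summed to 384, 290 and 74.9 FPKM, against 104 to 147 FPKM. Replicate 3 stood below the F1-Control range for both lists. Its Lamc3, Lama2, Lamb1, Nid1 and Hspg2 were above every F1-Control library, as were its stromal (926 FPKM) and endothelial (81.3 FPKM) sums. The part of these cell types was not tested.

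**Figure D3:**
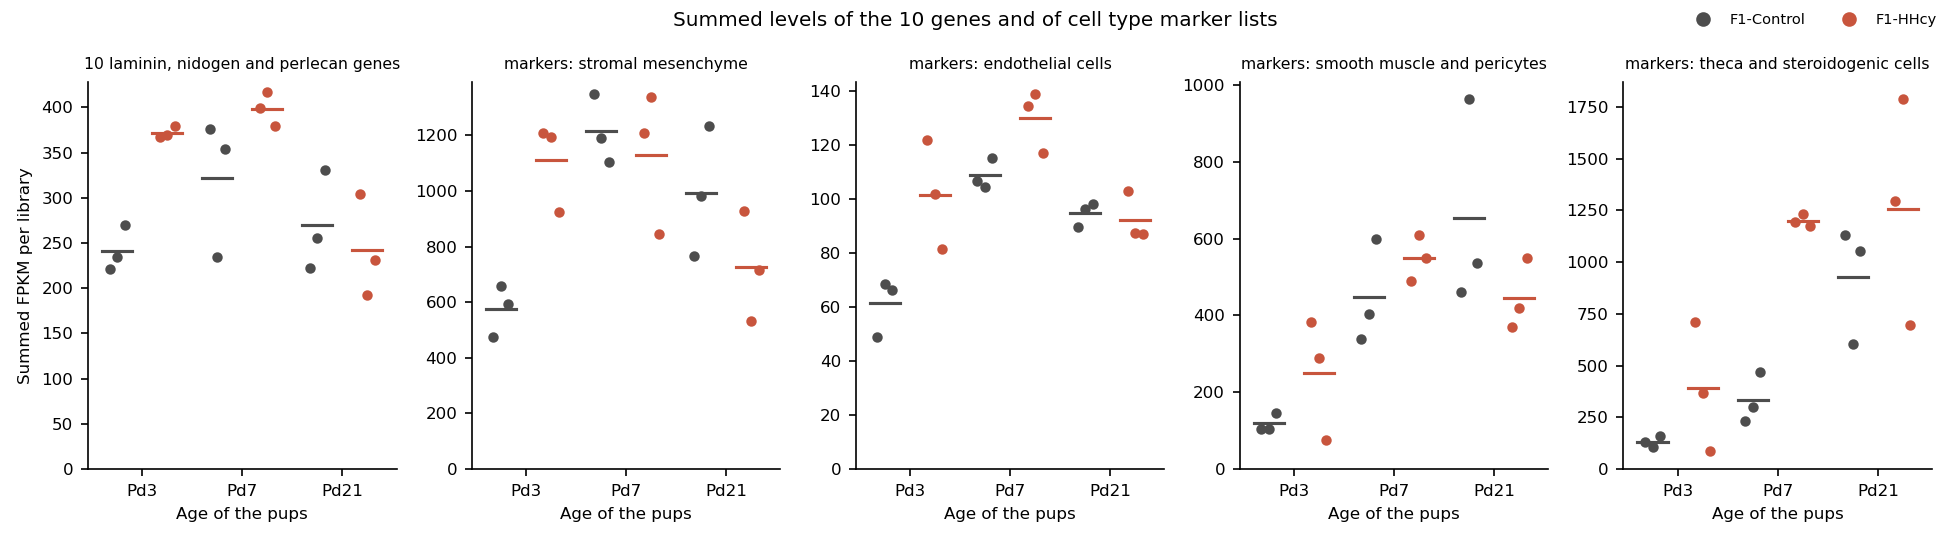
Summed FPKM per library (vertical axes, from 0) of the 10 genes and of 4 marker lists by age of the pups, with 1 point per library and a line at the group mean, F1-Control in grey and F1-HHcy in red. At Pd3 the summed level of the 10 genes and that of the stromal and endothelial markers are higher in all F1-HHcy libraries, and at Pd7 those of the 10 genes and of the endothelial and theca markers are.

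At Pd7, Lamc3 and Lamb2 were called higher in F1-HHcy, and 0 of the 10 genes were called lower. Of 13299 genes tested at Pd7, 9.06% were called higher and 7.35% lower. The median log2 fold change was 0.29 over the 10 genes and -0.0015 over all genes tested, and all 10 values were above 0. The 10 levels summed to 235 to 376 FPKM in F1-Control and 379 to 417 FPKM in F1-HHcy. Only Lamc3 had an adjusted p under 0.05, as had 5.88% of the genes in the same direction and 5.98% in the other.

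Lamc3 measured 20.1, 20.1 and 22.6 FPKM in F1-HHcy at Pd7 and 3.67, 2.93 and 8.34 FPKM in F1-Control. The F1-HHcy libraries now lay close together, all above the highest F1-Control library. The log2 fold change was 1.98 (SE 0.28, adjusted p = 0.00403 by limma), and it stayed between 1.73 and 2.36 when each library was left out.

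Lamb2, the beta chain of synaptic and glomerular laminins, measured 36.0, 40.0 and 31.5 FPKM in F1-HHcy and 26.2, 12.1 and 25.2 FPKM in F1-Control. The groups did not overlap, with F1-Control replicate 2 far below the rest. Lamb2 had a change of 0.80 on the log2 scale (SE 0.26, adjusted p = 0.0701 by limma), and without that library it was 0.46, under the fold threshold with an unadjusted p still under 0.05.

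Lama2 came just short of the fold threshold at Pd7. It measured 29.7, 29.1 and 28.7 FPKM in F1-HHcy and 19.2, 14.8 and 24.9 FPKM in F1-Control, again with no overlap. Its log2 fold change of 0.576 lay below 0.58 (SE 0.18, adjusted p = 0.0639 by limma), and a pseudocount of 0.1 or limma-voom moved it to 0.60 and past the threshold. It was also called without F1-Control replicate 3 (0.75) or F1-HHcy replicate 3 (0.59).

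The remaining members at Pd7 ranged from 0.02 for Lama5 to 0.51 for Hspg2 in log2 fold change, and none of these 7 passed the test. Hspg2 measured 36.6, 47.5 and 35.6 FPKM in F1-HHcy and 41.6, 15.8 and 31.7 FPKM in F1-Control, so that the groups overlapped, and it was called, at 0.79, without F1-Control replicate 1. Nid1 overlapped as well, at 103, 106 and 82.9 FPKM against 113, 72.5 and 93.4 FPKM. In all, 5 genes, Lama2, Lama4, Lamb1, Lamb2 and Lamc3, were higher in every F1-HHcy library than in every F1-Control library, as were 19.5% of the genes tested.

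F1-Control replicate 2 at Pd7 stood apart in the length of its fragments' genes as well. Weighted by fragments, the mean gene length was 3852 bases in it and 4239 to 5071 bases in the other 17 libraries, and it had the lowest value of its group for all 10 members. Whether this moved the levels of long mRNAs was not tested. Without it the log2 fold changes of Lama1, Lama5, Lamc1 and Nid1 at Pd7 turned to -0.07, -0.50, -0.08 and -0.09, and that of Hspg2 dropped to 0.12.

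Cell type markers moved at Pd7 as well, and their part in the result was not tested. The 7 theca and steroidogenic markers, among them Cyp17a1 and Cyp11a1, summed to 233 to 468 FPKM in F1-Control and 1172 to 1230 FPKM in F1-HHcy, 7 of 7 higher with no overlap. The stromal markers overlapped, at 1103 to 1350 and 846 to 1340 FPKM. Germ cell markers summed to 1089 to 1757 FPKM in F1-Control and 639 to 946 FPKM in F1-HHcy, with 8 of 9 lower and not overlapping. Of the erythroid markers, 5 of 5 were lower with no overlap, as at Pd3. At Pd7, 19.5% of all genes tested were lower and 19.5% higher with no overlap. The endothelial markers summed to 104 to 115 FPKM in F1-Control and 117 to 139 FPKM in F1-HHcy. The sums were lower in F1-HHcy for surface epithelium (407 to 723 against 178 to 377 FPKM) and for oviduct markers (77.7 to 131 against 31.9 to 50.1 FPKM).

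At Pd21 no member was called higher in F1-HHcy and Lama5 was called lower, where 0.0824% of 13350 genes were called higher and 5.06% lower. The groups overlapped for all 10 genes, where 1.92% of genes were higher and 8.61% lower without overlap. The median log2 fold change was -0.20 over the 10 genes and -0.011 over all genes tested, and 8 of the 10 values were below 0. No member had an adjusted p under 0.05, as 2.23% of genes had in the lower direction.

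Lama5, the alpha chain of mature epithelial and vessel basement membranes, measured 4.40, 1.16 and 2.32 FPKM in F1-HHcy at Pd21 and 4.01, 5.09 and 5.74 FPKM in F1-Control. F1-HHcy replicate 1 lay within the F1-Control range and the other two below it. Its log2 fold change was -0.80 (SE 0.31, adjusted p = 0.583 by limma). The call was lost when any of 4 libraries was left out (F1-HHcy replicate 2 or 3, F1-Control replicate 2 or 3), the smallest change being -0.48 without F1-HHcy replicate 2.

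Hspg2 had the next lowest value at Pd21, a change of -0.53 on the log2 scale (SE 0.26, adjusted p = 0.915 by limma), from 19.9, 9.60 and 16.4 FPKM in F1-HHcy and 17.0, 22.8 and 26.0 FPKM in F1-Control. Lamc3 stood at 13.8, 6.81 and 14.2 FPKM in F1-HHcy and 8.76, 16.4 and 21.5 FPKM in F1-Control, with a log2 fold change of -0.37 (SE 0.35). Hspg2 was called lower without F1-HHcy replicate 1 (-0.74) or F1-Control replicate 1 (-0.69), and Lamb2 without F1-HHcy replicate 1 (-0.59). The remaining 7 ranged from -0.28 for Lamc1 to 0.17 for Lama1.

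Epithelial marker sums were also lower in F1-HHcy at Pd21, as they were at Pd7, and their part was not tested. The 7 oviduct and multiciliated markers summed to 124 to 521 FPKM in F1-Control and 19.5 to 43.3 FPKM in F1-HHcy, 7 of 7 lower with no overlap. Foxj1, the master regulator of motile cilia, had 20.4 to 99.1 FPKM in F1-Control and 0.248 to 0.441 FPKM in F1-HHcy. The 6 surface epithelium markers summed to 302 to 348 and 109 to 207 FPKM, with 4 of 6 lower and not overlapping. The stromal sums overlapped (764 to 1233 and 531 to 928 FPKM), as did the smooth muscle ones (462 to 964 and 370 to 550 FPKM). Sox10, the defining marker of Schwann cells, did not exceed 0.271 FPKM in any library.

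Did the diet effect itself change with age? The limma model of all 18 libraries compared the diet effects of Pd3 and Pd7. In it, 0 of the 10 members had a difference, Pd7 minus Pd3, with an adjusted p under 0.05. Of 14607 genes, 0.103% had such a difference above 0 and 0.308% below 0. At an unadjusted p under 0.05 there were 2 members. Lama2 had a difference of -0.88 (SE 0.31, adjusted p = 0.245 by limma). Nid1 had one of -0.68 (SE 0.32, adjusted p = 0.359 by limma). The share of all genes at this looser threshold was not counted, for this pair of days or the next. Between Pd7 and Pd21 the effect on Lamc3 was lower at Pd21, with a difference, Pd21 minus Pd7, of -2.35 (SE 0.61, adjusted p = 0.0377 by limma). Of all genes, 0.986% had a difference above 0 and 2.9% one below 0 at an adjusted p under 0.05. At an unadjusted p under 0.05 there were also Lamb2 (-1.07, adjusted p = 0.119 by limma), Hspg2 (-1.03, adjusted p = 0.191) and Lama2 (-0.69, adjusted p = 0.24). The difference was below 0 for 9 of the 10 members, with a median of -0.55, beside -0.033 over all genes. For Lamc3 the adjusted p was above 0.05 under 4 other settings and without any of 8 of the 12 libraries, with differences from -2.62 to -2.04 there, and age and batch cannot be told apart in it.

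In F1-Control ovaries from Pd3 to Pd7, Lama2, Lamc3 and Nid1 were called higher at Pd7 and 0 members were called lower, where 6.76% of 14607 genes were called higher and 6.89% lower. Lama2 rose from 6.76 ± 1.3 to 19.6 ± 5.0 FPKM (SD, n = 3; log2 fold change 1.40, SE 0.22, adjusted p = 0.00149 by limma). Lamc3 rose from 0.208 to 4.98 FPKM (2.21, SE 0.43, adjusted p = 0.00493 by limma), and Nid1 from 56.7 to 93.0 FPKM (0.68, SE 0.22, adjusted p = 0.0575 by limma). An adjusted p under 0.05 was reached by 2 of the 10, as by 5.27% of genes upward and 6.08% downward. The ranges of 4 members at Pd7 lay wholly above those at Pd3 and 0 wholly below, as for 16.6% and 21.6% of genes. The Nid1 call was lost without F1-Control Pd7 replicate 1, where it was 0.53, and Hspg2, not called at 0.60, was called without F1-Control Pd7 replicate 2 (0.98) or F1-Control Pd3 replicate 3 (0.82) and under median-ratio scaling (0.66). Without F1-Control Pd7 replicate 1, Lama5 was called lower (-0.88).

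Markers of cell types moved between these days in the same F1-Control libraries, and their part was not tested. The stromal sum went from 475 to 658 FPKM at Pd3 to 1103 to 1350 FPKM at Pd7, the endothelial sum from 48.9 to 68.6 FPKM to 104 to 115 FPKM, and the smooth muscle sum from 104 to 147 FPKM to 338 to 599 FPKM, all with no overlap. In F1-HHcy the stromal sums of Pd3 and Pd7 overlapped (926 to 1209 and 846 to 1340 FPKM), as did the endothelial ones (81.3 to 122 and 117 to 139 FPKM), whereas the smooth muscle sums did not (74.9 to 384 and 490 to 609 FPKM). The theca sums of the 2 days did not overlap in either diet group.

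In the F1-HHcy ovary over the same days, Lamc3 alone was called higher, from 6.34 ± 5.1 to 20.9 ± 1.5 FPKM (SD, n = 3; log2 fold change 1.82, SE 0.43, adjusted p = 0.0283 by limma), and 0 members were called lower. Of all genes, 5.76% were called higher and 6.03% lower, and 2.29% and 3.18% had an adjusted p under 0.05. The ranges of 5 members, Lama2, Lama4, Lamb1, Lamb2 and Lamc3, lay wholly above those at Pd3, as for 14.3% of genes. Lama2 had 0.52 (SE 0.22), under the fold threshold, and it was called without F1-HHcy Pd3 replicate 1. Nid1, Lamb1 and Hspg2 had 0.0048, 0.07 and 0.10, with SEs of 0.22, 0.16 and 0.30.

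The F1-HHcy ovaries at Pd3 and the F1-Control ovaries at Pd7 were set side by side, as a description with no test, because both groups enter the comparisons above. The ranges overlapped for 9 of the 10 genes, and the share over all genes was not computed. The F1-Control Pd7 ranges were wide, as 15.8 to 41.6 FPKM for Hspg2, so overlap is weak evidence of likeness. The means were 20.4 and 19.6 FPKM for Lama2, 96.6 and 93.0 FPKM for Nid1, 6.34 and 4.98 FPKM for Lamc3, 36.9 and 29.7 FPKM for Hspg2, and 88.7 and 77.3 FPKM for Lamb1. The exception was Lamb2, whose F1-HHcy Pd3 libraries (26.5 to 29.3 FPKM) lay above all F1-Control Pd7 libraries (12.1 to 26.2 FPKM).

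Over all 6 groups, Lamb2, Lama2, Lama4 and Lamb1 were highest in F1-HHcy at Pd7, above the whole range of the group that came next. For Lamb1 the lowest F1-HHcy Pd7 library was at 91.6 FPKM and the highest of F1-HHcy Pd3 at 91.3 FPKM. For Lama4 it was 13.8 FPKM, against 13.5 FPKM in F1-Control Pd21. The share of all genes with this pattern was not computed, and the order mixes the batches. For Lama2 the next groups, F1-HHcy Pd3, F1-Control Pd7 and both groups of Pd21, overlapped with their neighbours in the order, and F1-Control Pd3 lay below all others. Lamc3 had the same lowest group, and its other 5 groups overlapped with their neighbours. Lama5 had its highest means at Pd3 (10.1 and 9.16 FPKM) and its lowest at Pd21 (4.94 and 2.63 FPKM), with every neighbouring pair overlapping.

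**Figure D4:**
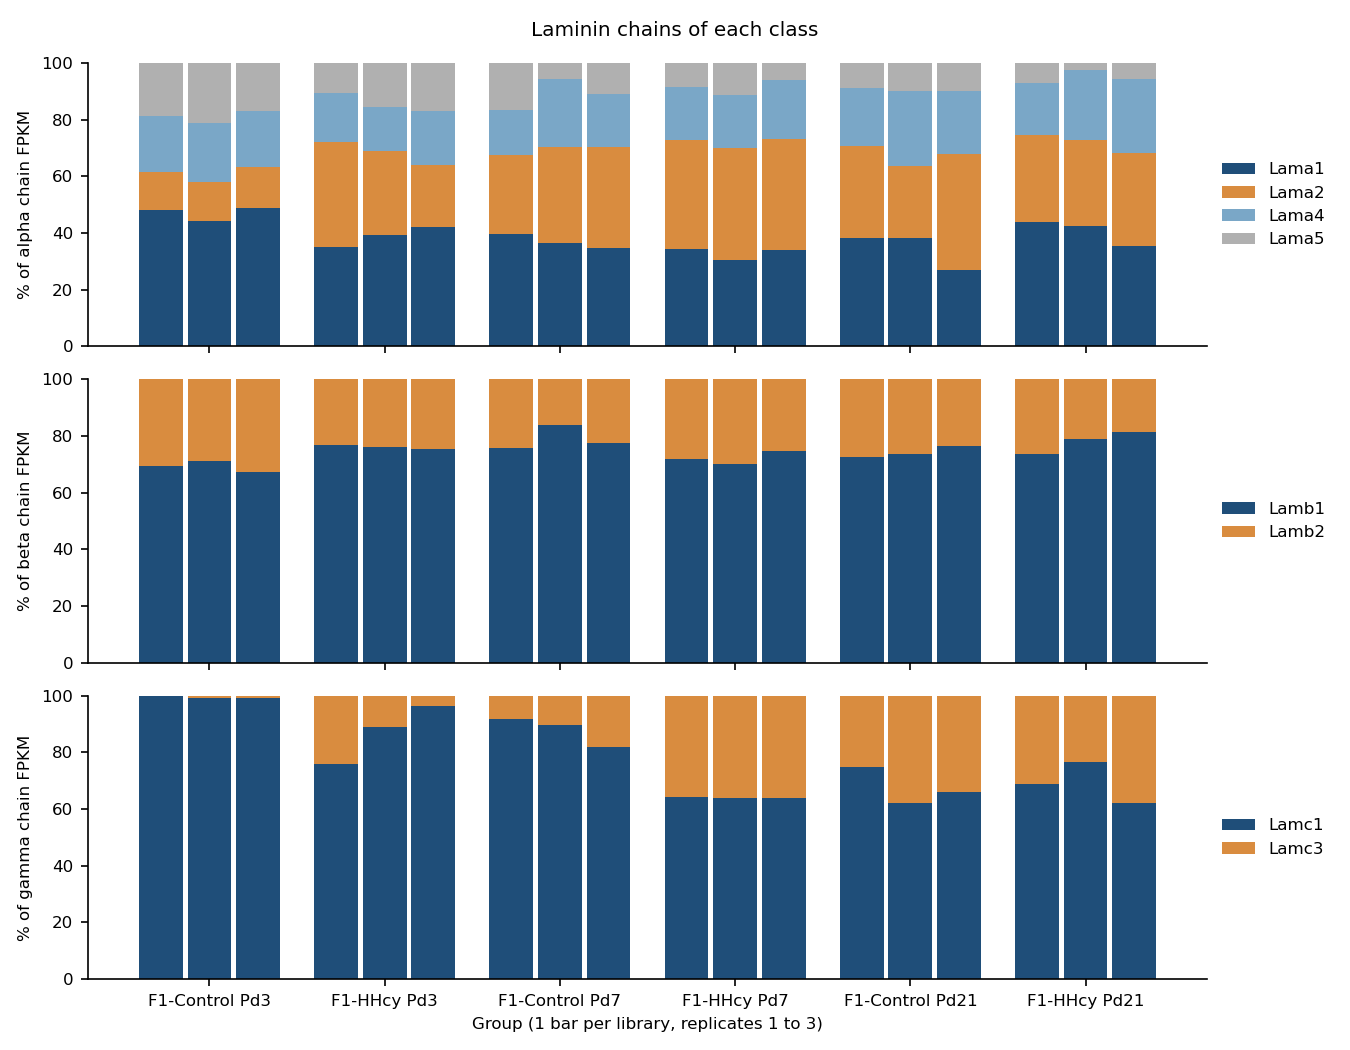
Share of each listed chain in the summed FPKM of its class (vertical axes, percent), with 1 stacked bar per library and the alpha, beta and gamma classes in separate panels. The orange part of the gamma panel, Lamc3, is under 1% in the 3 F1-Control libraries of Pd3 and about 36% in the 3 F1-HHcy libraries of Pd7.

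The make-up of each chain class follows from these levels and is given with no test. Lamc3 was 0.611% ± 0.36 of the listed gamma chain FPKM in F1-Control at Pd3 and 12.9% ± 10.5 in F1-HHcy (SD, n = 3), where the libraries ranged from 3.45% to 24.2%. At Pd7 it was 12.3% ± 5.1 and 36.1% ± 0.19, and the 3 F1-HHcy libraries lay between 35.9% and 36.2%. At Pd21 it was 32.4% and 30.8%, close to the F1-HHcy share of Pd7.

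Among the alpha chains, Lama1 held 47.0% and Lama2 13.9% in F1-Control at Pd3, and the F1-HHcy ovaries had 38.8% and 29.5%. At Pd7 the Lama2 share was 32.4% ± 4.0 in F1-Control and 39.1% ± 0.40 in F1-HHcy. The Lama5 share was 19.0% at Pd3 and 9.46% at Pd21 in F1-Control, and 14.4% and 5.09% in F1-HHcy. Among the beta chains Lamb1 held at least 69.3% in every group mean, and the share of Lamb2 was lower in F1-HHcy at Pd3 (23.9% against 30.7%) and higher at Pd7 (27.8% against 20.9%).

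Lists of other basement membrane genes were read beside the 10. For the counts below, 5% of all genes tested were called higher and 4.74% lower at Pd3. The shares were 9.06% and 7.35% at Pd7, and 0.0824% and 5.06% at Pd21. Of 10 receptor genes listed, 8 were tested at Pd3, and Itga9, an integrin subunit that binds tenascin and other matrix proteins, was called higher and 0 lower. It measured 19.6, 20.6 and 16.4 FPKM in F1-HHcy and 8.86, 10.3 and 11.3 FPKM in F1-Control (log2 fold change 0.83, SE 0.13, adjusted p = 0.0288 by limma). Of the 8 receptor values at Pd3, 6 were above 0 and 2 below 0. Of 9 receptor genes at Pd7, 0 were called in either direction, with a median log2 fold change of -0.11. At Pd21, 3 of 9 were called lower and 0 higher: Itgb4, the hemidesmosome integrin (-0.97, SE 0.20), Bcam, the Lutheran receptor for Lama5 (-0.80, SE 0.23), and Itga3, the subunit of a laminin receptor of epithelia (-0.80, SE 0.24). Their adjusted p-values by limma were 0.0561, 0.224 and 0.249. Itgb4, at 0.422 to 0.971 FPKM in F1-HHcy and 1.87 to 2.93 FPKM in F1-Control, passed the filter only through the F1-Control libraries. It thus had to be lower in F1-HHcy, and without it the called receptors were Bcam and Itga3.

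Of the 8 collagen genes of basement membranes, Col4a3 and Col4a4, which share a promoter region and form the network of mature glomeruli, were called higher at Pd3. Of the 8 values, 6 were above 0 and 2 below 0, and 0 were called lower. Col18a1, named after its value was seen, was at 60.5 to 70.0 FPKM in F1-Control and 40.2 to 52.0 FPKM in F1-HHcy. Col4a4 measured 18.8, 14.0 and 7.54 FPKM in F1-HHcy and 1.88, 2.29 and 2.45 FPKM in F1-Control (log2 fold change 2.09, SE 0.29, adjusted p = 0.0203 by limma). Col4a3 had a change of 1.58 on the log2 scale (SE 0.32, adjusted p = 0.0484 by limma). At 0.446 to 0.838 FPKM in F1-Control, Col4a3 passed the filter on low values only through the F1-HHcy libraries. It thus had to be higher there, and without it Col4a4 was the called collagen gene. Both were highest in F1-HHcy replicate 1 and lowest in replicate 3, as Lamc3 was.

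At Pd7 there were 4 of 8 collagen genes called higher and 0 lower, Col4a4 (1.12), Col4a3 (1.04), Col4a6 (0.68) and Col15a1 (0.58), the last named after its value was seen. All 8 values were above 0, and no adjusted p was under 0.05. At Pd21 all 8 were below 0 with a median of -0.30, beside -0.011 over all genes, and 0 were called.

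Among 14 other basement membrane and linked matrix proteins, Egflam (pikachurin, a dystroglycan ligand), Frem1 (a Fraser complex protein) and Smoc2 (a calcium-binding matrix protein) were called higher at Pd3 and 0 lower. Egflam measured 13.4, 12.5 and 9.02 FPKM in F1-HHcy and 3.00, 3.57 and 4.39 FPKM in F1-Control (log2 fold change 1.43, SE 0.18, adjusted p = 0.0188 by limma). At Pd7, 4 were called higher, among them Smoc2 (1.95, SE 0.32, adjusted p = 0.00673 by limma) and its relative Smoc1 (1.17, SE 0.23, adjusted p = 0.0137 by limma), beside Frem1 and Ntn4, named after their values were seen. Npnt (nephronectin, an integrin ligand) was called lower at Pd7 (-0.88, SE 0.22, adjusted p = 0.0343 by limma). At Pd21, 2 of 13 were called lower, Fbln2 (-0.77) and Npnt (-0.97), and 0 higher.

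**Figure D5:**
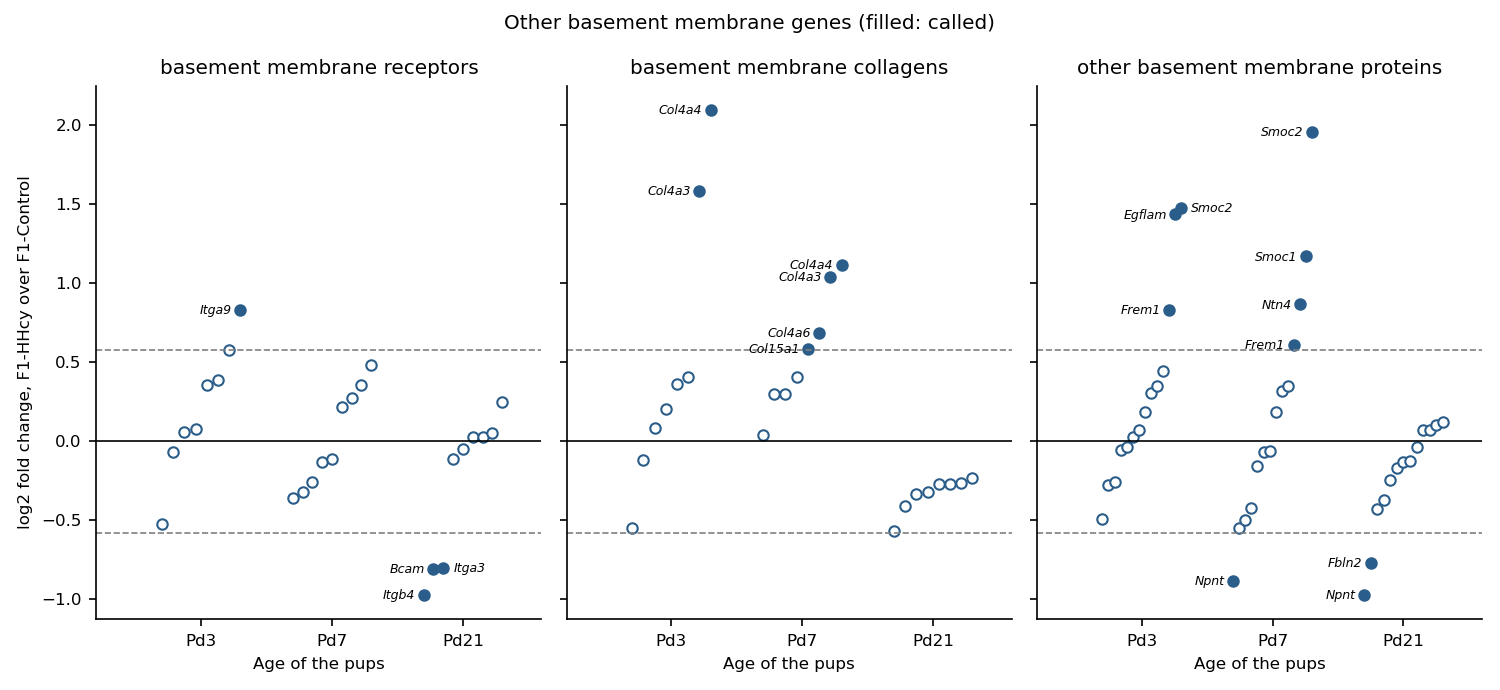
Log2 fold change of FPKM + 1, F1-HHcy over F1-Control (vertical axis), of the tested genes of 3 lists at Pd3, Pd7 and Pd21, with 1 point per gene, filled and named where called, and dashed lines at 0.58 and -0.58. Called receptors are 1 higher at Pd3 and 3 lower at Pd21, and called collagens are 2 higher at Pd3 and 4 higher at Pd7. Col4a3 at Pd3 and Itgb4 at Pd21 passed the filter on low values only through the group where they were higher.

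The members varied together only in part over the 18 libraries. As Pearson correlations of log2(FPKM + 1), which share tissue make-up, batch and depth and are given as a description, the closest pairs were Nid1 and Hspg2 (0.91), Lamb1 and Hspg2 (0.91) and Lamb1 and Nid1 (0.90). Lama2 and Lamc3 had 0.83, whereas Lama5 and Lamc3 had -0.37 and Lama1 and Lamc3 -0.16. After the group means were removed, the pairs of Lama5 with Hspg2 and with Lamb2 were the closest (0.87 and 0.86). These genes were lowest of their group in F1-Control Pd7 replicate 2 and highest of their group in F1-HHcy Pd21 replicate 1. The weight of single libraries in these correlations was not tested.

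Among all 14607 genes, those most alike to Lamc3 were Stard8 (0.99), Mmd2 (0.97) and Cped1 (0.97). Those of Lama2 were Cd93, an endothelial receptor (0.95), Egflam (0.95) and Pdgfra, the platelet-derived growth factor receptor of mesenchyme (0.94). Nid1 was closest to Fgf2 (0.97) and Sfrp1 (0.94), Hspg2 to Col5a1 (0.95) and Lamb1 to Frem1 (0.93). Lama5 was closest to Palld and Agrn (0.97 and 0.96), Lamb2 to Kmt2a (0.97), Lamc1 to Tbc1d16 (0.92), Lama1 to Gprasp1 (0.87) and Lama4 to Slit3 (0.86).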

How the data were processed

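The authors deposited 1 table per library with 1 normalised value per gene symbol and no unit. That these deposited values are FPKM follows from the numbers: 1 length per gene and 1 total per library turned 27294 of 27294 genes above 0 in at least 3 libraries into whole fragment numbers (within 0.05). The submitters' processing notes name FastQC 0.11.9, Trimmomatic 0.39, STAR 2.7.9a, featureCounts 2.0.1, DESeq2 1.36.0 and GRCm38. The step that made FPKM is not given in the sources used here. The labels describe a stranded poly-A kit.

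Diets were compared at each age on log2(FPKM + 1) with limma 3.58.1 (R 4.3.3, trended variance) over genes that reached 1 FPKM in 3 or more of the 6 libraries. Pd3 and Pd7, and the diet effects of 2 ages, were compared in 1 model of 18 libraries and 14607 genes with the same filter. The code was tested on simulated data. For groups of 3, no 2-sided exact permutation p can be below 0.1. The members, 3 lists of 32 other basement membrane genes and 12 marker lists were chosen with earlier results of these data known. Named were all members, up to 3 called genes per list and age with the smallest p, and the genes most correlated with each member. Alternatives were another pseudocount, no filter, median-ratio scaling, leaving out mitochondrially encoded and hemoglobin genes, limma-voom on fragments, the replicate number as a block, 1 model of all libraries, the 12 libraries of batch 1 and each library left out. Figures used matplotlib 3.10.9.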

Additional observations from a re-analysis of the deposited data

Results flagged for a closer look

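The diet effect on Lamc3 differed between ages by a test of the difference itself. The log2 fold change of F1-HHcy over F1-Control was 1.98 (SE 0.28) at Pd7 and -0.37 (SE 0.35) at Pd21, and the limma model of 18 libraries gave a difference of -2.35 (SE 0.61, adjusted p = 0.0377). All 3 F1-HHcy libraries were above all F1-Control libraries at Pd7, and the groups overlapped at Pd21. Pd7 is batch 1 and Pd21 is batch 2, so age and batch cannot be told apart in this difference. The adjusted p was above 0.05 with a pseudocount of 0.1 (-2.60), limma-voom (-2.62), no filter, the replicate block, or any of 8 single libraries left out.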

How the results depend on the processing

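Counts of called members were recomputed under each alternative. The replicate numbers did not pair the samples (correlations of same-numbered deviations -0.338 to 0.0872), and with the replicate block 5 members were higher at Pd3, 2 higher at Pd7 and 1 lower at Pd21, as without it. The count at Pd7 was 1 at an adjusted p under 0.05. The count lower at Pd21 was 0 with no filter and 0 at an adjusted p under 0.05. Lamc3 alone differed in diet effect between Pd7 and Pd21, and the count was 0 with a pseudocount of 0.1, 0 with no filter, 0 with limma-voom and 0 with the replicate block. With each library left out, the counts ran from 3 to 5 (higher at Pd3), 1 to 3 (higher at Pd7), 0 to 3 (lower at Pd21), 2 to 4 and 0 to 1 (higher and lower from Pd3 to Pd7 in F1-Control), 1 to 2 (higher in F1-HHcy) and 0 to 2 (diet effect between Pd7 and Pd21). The 3 at Pd21, without F1-HHcy replicate 1, were Lama5, Lamb2 and Hspg2. The counts at Pd3 include Lamc3, which passed the filter only through the F1-HHcy libraries and could not be tested with any of them left out. Beyond this, the causes were not tested.

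Median-ratio scaling turned Lama1 from -0.038 to 0.024 for Pd7 against Pd3 in F1-Control. Log2 changes of members that took both signs when single libraries were left out had the following ranges. The diets at Pd3 gave Lama5 -0.030 to 0.30. The diets at Pd7 gave Lama1 -0.075 to 0.30, Lama5 -0.50 to 0.41, Lamc1 -0.079 to 0.26 and Nid1 -0.086 to 0.23. The diets at Pd21 gave Lama1 -0.027 to 0.40, Lama2 -0.29 to 0.13, Lama4 -0.22 to 0.0095, Lamb1 -0.14 to 0.17 and Nid1 -0.37 to 0.094. Pd7 against Pd3 in F1-Control gave Lama1 -0.19 to 0.19, Lama5 -0.88 to 0.025 and Lamc1 -0.10 to 0.23. Pd7 against Pd3 in F1-HHcy gave Nid1 -0.062 to 0.11 and Hspg2 -0.031 to 0.17. The diet effect at Pd7 minus Pd3 gave Lama1 -0.31 to 0.062, Lama4 -0.059 to 0.13, Lama5 -0.60 to 0.31 and Lamc3 -0.88 to 0.14. The diet effect at Pd21 minus Pd7 gave Lama1 -0.18 to 0.25 and Nid1 -0.45 to 0.015. 

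Shares of chain classes by recovered fragments, not divided by length, moved by more than 1 SD in 16 of 48 cases. For Lama2 they were 16.7% and 38.3% in F1-Control at Pd3 and Pd7, and 45.7% and 38.0% in F1-HHcy at Pd7 and Pd21. Lama4 held 12.4%, 11.8% and 14.1% in F1-Control and 10.2%, 11.5% and 14.3% in F1-HHcy at the 3 ages, and Lama5 23.2% and 11.5% in F1-Control at Pd3 and Pd21. In F1-HHcy at Pd3 Lamb1 held 76.7% and Lamb2 23.3%, and at Pd7 Lamc1 held 61.4% and Lamc3 38.6%. With 3 libraries a group, small changes cannot be told from the spread.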
